A study of Mus musculus with 4 samples.

Results

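Cochlear RNA of *Prestin*-*hDTR* mice and of wild-type mice was compared after both had received diphtheria toxin (DT), so that the genotype differed and the exposure to toxin did not. The comparison used 2 of the 4 Agilent arrays of the study, 1 per group, chosen by their titles (WT DT(+) and OHC-TRECK DT(+), the labels' name for DT-treated *Prestin*-*hDTR* mice). Of 39429 mouse probes on the array, 23739 were well above background on both arrays and were compared. Both groups were on the B6J background, were 5 weeks old and received 50 μg/kg of DT 7 days before dissection, and the other 2 arrays held untreated mice of the same genotypes and age. Each array held pooled RNA of whole dissected cochleae, given as n = 8 with 4 females and 4 males, and whether the 8 counts mice or cochleae is not settled by the sources used here. The *Prestin*-*hDTR* mice came from a single transgenic line, in which a prestin promoter region drives a modified human HB-EGF, the receptor for DT. Neither wild-type group carried the transgene. With 1 array per group no difference has a replicate array, no test across arrays was made, and pooling hides the spread between mice. The authors measured some of these genes by qRT-PCR, where most were significantly changed and a few were not or were undetectable. Those measurements were not analysed here.

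The cochlea contains a row of inner hair cells, which send sound to the auditory nerve, and rows of outer hair cells (OHCs), which amplify vibration through the motor protein prestin (*Slc26a5*). DT enters cells that carry human HB-EGF and stops protein synthesis by inactivating elongation factor 2, whereas mouse HB-EGF binds the toxin poorly. Resident macrophages of the cochlea are known to respond to hair cell death, and the bony shell around the cochlea holds marrow spaces with developing blood cells.

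A normalized log2 signal is the log2 of a probe's intensity divided by the 75th percentile of its array, so that 0 marks a probe as bright as that percentile. A log2 ratio is the signal in DT-treated *Prestin*-*hDTR* mice minus that in DT-treated wild-type mice, and the same ratio between the untreated groups is given as the background of genotype. On the 4 arrays 62.3% to 70.6% of probes were well above background, without a saturated spot. The array of DT-treated *Prestin*-*hDTR* mice had 69 spots marked as non-uniform, against 1 to 5 on the other arrays, and such spots were left out. Repeated spots of a probe had a median SD of 0.061 to 0.071 on the log2 scale, which measures the error within an array only. All 4 arrays lay on 1 slide, and the 8 probes for *Gapdh* had log2 ratios between -0.08 and 0.29.

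Relative to DT-treated wild-type mice, 156 of the 23739 probes were upregulated by at least 2-fold (0.657%) and 245 were downregulated (1.03%). The median log2 ratio was 0.01, with an SD of 0.32 over probes. At 1 probe per gene, 18270 genes were measured, of which 134 were 2-fold or more higher (0.733%) and 208 lower (1.14%), with a median of 0.01. The probes of 35 called genes could be set against other probes for the same gene, for 30 of these genes all other probes had the same sign, and for 16 all were also past 2-fold. Genes of hair cells were among the lowest, and genes of nerve injury, chemokines and phagocytes were among the highest. A second set of lower genes belonged to blood and marrow cells, and part of that set was also lower without toxin.

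**Figure D1:**
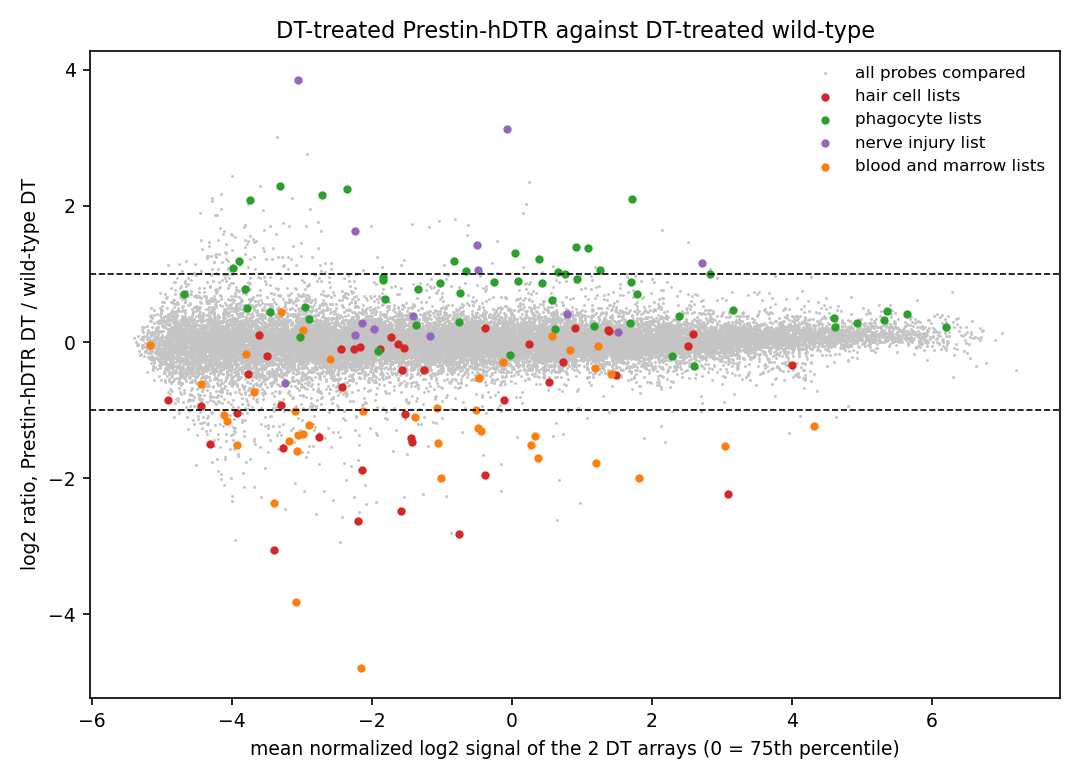
Each point is a probe well above background on both arrays, with its mean normalized log2 signal on the x axis and its log2 ratio, DT-treated *Prestin*-*hDTR* over DT-treated wild-type, on the y axis. Coloured points are members of gene lists chosen with earlier results of these data known, at 1 probe per gene, and dashed lines mark 2-fold. The 156 probes above (0.657% of all) include 19 of phagocyte and immune lists, and the 245 below (1.03%) include 16 of hair cell lists. These counts cover more lists and probes than are coloured, and how many compared probes the lists held was not counted.

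Markers of OHCs are described first. Their list was chosen with earlier results of these data known, so its values are no independent check of OHC loss. Of 10 listed OHC genes, 9 were measured on both arrays, 5 were 2-fold or more lower, 0 were higher, and 8 of the 9 had a ratio below 0. Over all genes 1.14% were lower by that much. The median log2 ratio of the list was -1.06, against 0.01 over all genes measured and 0.21 for the same list between the untreated groups. In bulk RNA, fewer cells of a type and less RNA per cell cannot be told apart.

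Stereocilin (*Strc*), which links the stereocilia of OHC bundles to each other, had the lowest ratio of the list. For *Strc* (probe at chr2:121189571-121189630, mm9), the normalized log2 signal was -2.03 in untreated and -1.87 in DT-treated wild-type mice, and -1.83 in untreated and -4.93 in DT-treated *Prestin*-*hDTR* mice. Only the last array was low, and it lay 8.29-fold below DT-treated wild-type mice. Subunits α10 and α9 of the nicotinic receptor, through which efferent nerve fibres inhibit OHCs, followed. *Chrna10* (chr7:109259781-109259840, mm9) had signals of 0.39, 0.66, 0.77 and -2.16 in the same order of arrays, a difference of 7.09-fold between the DT-treated groups. The main probe of *Chrna9* had signals of -1.24, -0.89, -0.74 and -3.52 and was 6.16-fold lower, but its second probe had a log2 ratio of only -0.16. This second probe was dimmer than the main probe on every array, with -4.13, -4.32, -4.37 and -4.49. The probes for *Chrna9* therefore disagree on the size of the difference.

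Oncomodulin (*Ocm*) is a calcium-binding protein abundant in OHCs. Its signal (chr5:144780676-144780735, mm9) was 4.36, 4.21 and 4.35 on the 3 other arrays and 1.97 in DT-treated *Prestin*-*hDTR* mice, 4.71-fold below DT-treated wild-type. The second *Ocm* probe gave a log2 ratio of -2.37, close to the -2.24 of the first. *Lmod3*, an actin-nucleating leiomodin, was lower by 2.09-fold. The calcium pump gene *Atp2b2* was below 2-fold, with a log2 ratio of -0.48. *Ikzf2*, a transcription factor of OHCs, had a ratio of -0.10 and *Kcnn2*, the calcium-activated potassium channel of the efferent synapse, one of 0.17. The summed level of the 9 genes, in multiples of the 75th percentile, was 30.8 in untreated and 29.2 in DT-treated wild-type mice, and 32.2 in untreated and 11.1 in DT-treated *Prestin*-*hDTR* mice.

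Prestin itself was dim. *Slc26a5* (chr5:21316891-21316950, mm9) had signals of -4.89, -4.47 and -5.06 on the 3 other arrays and was not well above background at -6.07 in DT-treated *Prestin*-*hDTR* mice. With toxin it was at least 1.96-fold lower in *Prestin*-*hDTR* than in wild-type mice. Such a lower bound sets the dim array at the probe's own signal or at the lowest signal among its well-above-background probes, whichever is higher. Genes with a bound are kept out of all counts. Mouse *Hbegf* had signals of -1.50, -1.75 and -1.46 on the 3 other arrays and -0.89 in DT-treated *Prestin*-*hDTR* mice. Its log2 ratio was 0.86, and whether its probe also binds the human transcript was not tested.

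Transcription factors that direct hair cell development and survival were split. *Gfi1*, *Lhx3* and *Pou4f3* were 3.89-, 3.69- and 2.94-fold lower, and *Eya1*, which acts in the early otic field and in other cochlear cells as well, had a log2 ratio of 0.12. *Pou4f3*, which keeps hair cells alive, had signals of -2.68, -2.49 and -2.49 on the 3 other arrays and -4.05 in DT-treated *Prestin*-*hDTR* mice. *Barhl1* had a main probe at -0.09 and a second probe at -2.02, so its probes disagree. The list, 6 of 8 measured, had a median of -0.82, against 0.36 between the untreated groups. *Gfi1* was not equal among the other arrays, since its signal in wild-type mice was -0.34 without and 0.59 with toxin, beside 0.71 in *Prestin*-*hDTR* mice without toxin.

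Genes of mechanotransduction and of the hair bundle act in both kinds of hair cell. Of 34 listed, 27 were measured, 6 were 2-fold or more lower, 0 were higher, 22 had a ratio below 0, and the median was -0.41 (0.08 without toxin). The lowest was *Myo15*, the motor that carries proteins to the tips of stereocilia, with signals of -0.93, -0.34, -0.36 and -2.82 in the order used above and a 5.57-fold difference. *Tomt*, needed to bring the transduction channel to the bundle, and *Tmc1*, the pore of that channel, were 2.83-fold and 2.65-fold lower. *Pjvk* (pejvakin) was 2.76-fold, *Grxcr2*, which shapes stereocilia, 2.64-fold and *Clrn2* (clarin 2) 2.06-fold lower. *Ptprq*, a phosphatase of the bundle surface, was well above background with toxin in the wild-type mice alone, and the brighter of its probes was at least 3.10-fold lower in the *Prestin*-*hDTR* mice. This probe had -4.89, -3.51, -3.53 and -5.14 on the 4 arrays, so untreated wild-type mice were low as well, and without toxin the log2 ratio was 1.36. Other bundle genes were near 0, such as *Myo6* at -0.10, *Pcdh15* at -0.08, *Whrn* at 0.20 and *Eps8* at 0.20. *Lhfpl5*, part of the transduction complex, had probes at -0.86 and 0.07.

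Inner hair cell genes differed less. Of 8 listed, 7 were measured, 0 were 2-fold or more apart, and the median was -0.28 (0.09 without toxin). The lowest were *Cabp2*, a calcium sensor of synaptic calcium channels, at -0.81, *Otof*, the calcium sensor of vesicle release, at -0.63, *Slc17a8*, the vesicular glutamate transporter of inner hair cells, at -0.36, and the calcium pump gene *Atp2a3* at -0.28. *Cabp2* had signals of -0.10, 0.09 and 0.20 on the other arrays and -0.72 in DT-treated *Prestin*-*hDTR* mice, and *Otof* of 0.94, 1.09 and 1.14 against 0.46. Both genes were thus lowest on that array by less than 2-fold, and *Otof* is also known in OHCs before hearing begins. The summed level of the list was 9.70, 9.71, 10.3 and 10.1 on the 4 arrays in the same order.

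**Figure D2:**
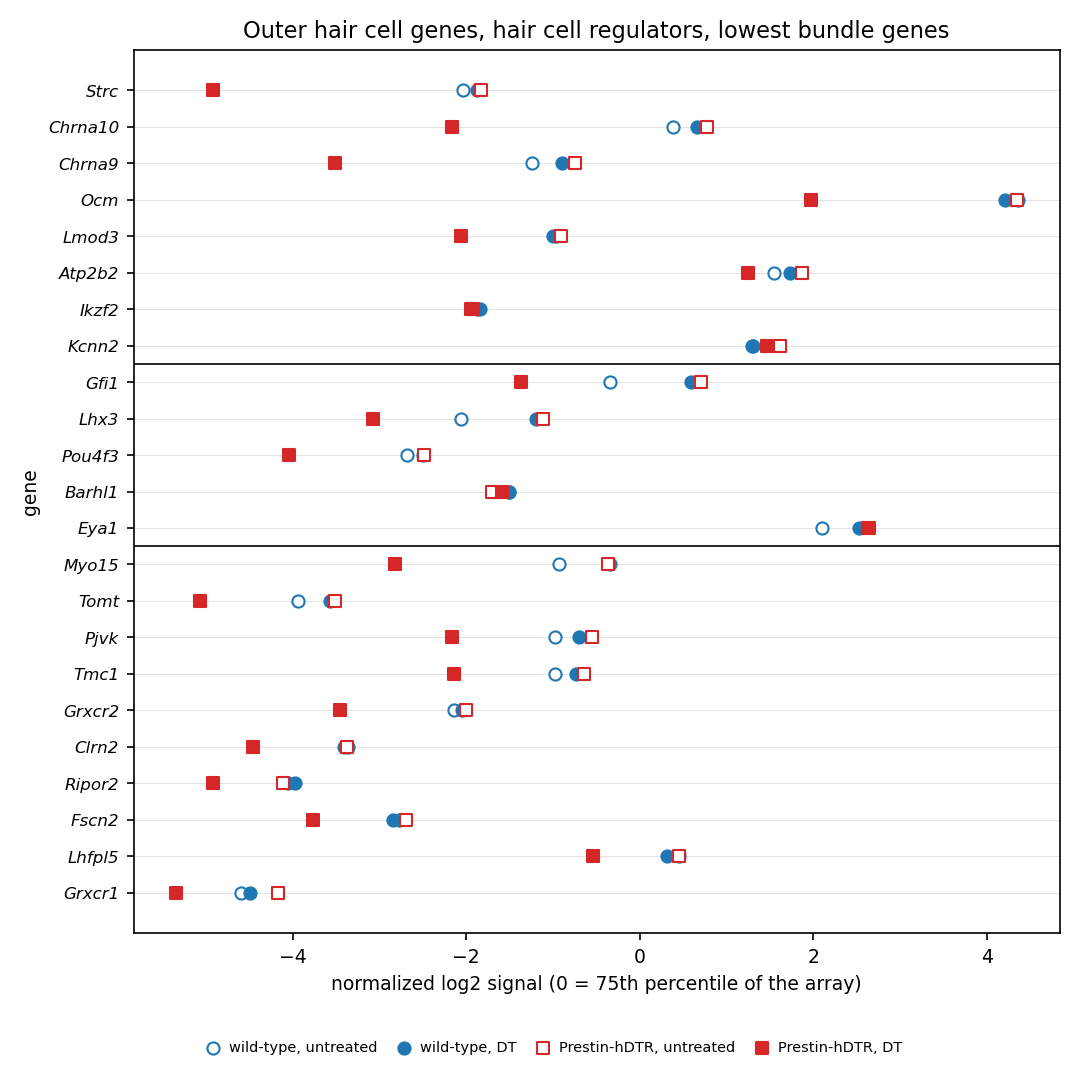
Normalized log2 signal (x axis, 0 = 75th percentile of the array) of 8 of the 9 measured outer hair cell genes, 5 of the 6 measured hair cell regulators and the 10 lowest hair bundle genes (rows), with 1 marker per array. The filled square of DT-treated *Prestin*-*hDTR* mice lies apart to the left for *Strc* (-4.93), *Chrna10* (-2.16) and *Ocm* (1.97), while the 3 other arrays lie close together for these genes.

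Other cochlear cells kept closer to 0. Of 13 measured supporting cell genes 0 were 2-fold apart and the median was 0.10, with *Epyc* at 0.59, the stem cell marker *Lgr5* at 0.50, *Otogl*, a protein of the gels over the sensory cells, at -0.72, and *Sox2* at -0.03. *Tecta*, a component of the tectorial membrane, was well above background with toxin in the wild-type mice alone, at least 2.28-fold apart, and it was not well above background in untreated wild-type mice either. All 18 spiral ganglion neuron genes were measured, 0 were 2-fold apart and the median was -0.04, with the intermediate filament gene *Prph* highest at 0.81 and *Syt1* lowest at -0.59. The 13 Schwann cell and myelin genes had a median of 0.19 and the 13 genes of the stria vascularis, which makes the endolymph, one of 0.24. In the stria list the pigment enzyme *Tyr* was the highest at 0.78. The 6 fibrocyte genes of the spiral ligament had a median of -0.02, and *Coch*, the abundant matrix protein of these cells, had signals of 5.95 to 6.06 on the 4 arrays.

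The largest rise of the comparison was *Sprr1a*, a small proline-rich protein of cornified epithelium that regenerating sensory neurons also make. Its signal (chr3:92287955-92288014, mm9) was -6.12 in untreated wild-type mice, where it was not well above background, and -4.98 in DT-treated wild-type mice. In *Prestin*-*hDTR* mice it was -5.93 without and -1.13 with toxin. The last array stood 14.4-fold above DT-treated wild-type mice. *Vgf*, a secreted neuropeptide precursor induced by neurotrophins, was next at 8.75-fold. For *Vgf* (chr5:137509153-137509212, mm9) the 3 other arrays had -1.96, -1.63 and -2.69, and DT-treated *Prestin*-*hDTR* mice had 1.5. *Sprr1a* and *Vgf* belong to a list of nerve injury and neurotrophic genes, of which 14 of 16 were measured, 6 were 2-fold or more higher, 0 were lower, and the median was 0.39 (-0.01 without toxin). *Gap43*, a growth cone protein, was 3.11-fold higher, and *Atf3*, a stress-induced transcription factor of injured neurons, was 2.67-fold higher. *Tnfrsf12a*, the receptor of TWEAK, was 2.23-fold and *Gadd45a*, a DNA damage response gene, 2.09-fold higher. The neurotrophic factors *Bdnf* and *Gdnf* had log2 ratios of 0.19 and 0.38, and *Npy* was the only member below 0, at -0.61. The summed level was 10.8, 11.6 and 11.1 on the 3 other arrays and 22.4 in DT-treated *Prestin*-*hDTR* mice.

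The promoter sequences of the largest rise and the largest fall, the latter in *Ppbp*, are shown as the RefSeq table gives them, 250 bases up to the transcription start on the strand of the gene. Capitals mark exact matches to AP-1 (TGACTCA, or TGAGTCA on the other strand) and to the TATA box (TATAAA). The region of *Sprr1a* is chr3:92485882-92486131 on the minus strand and that of *Ppbp* chr5:90768268-90768517 on the plus strand, both in GRCm38.p6.
Sprr1a: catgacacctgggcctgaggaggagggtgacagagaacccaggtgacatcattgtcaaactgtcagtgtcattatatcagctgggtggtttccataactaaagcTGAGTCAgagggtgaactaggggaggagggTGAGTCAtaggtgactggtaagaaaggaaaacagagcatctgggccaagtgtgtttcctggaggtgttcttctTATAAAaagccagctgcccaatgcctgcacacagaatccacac
Ppbp: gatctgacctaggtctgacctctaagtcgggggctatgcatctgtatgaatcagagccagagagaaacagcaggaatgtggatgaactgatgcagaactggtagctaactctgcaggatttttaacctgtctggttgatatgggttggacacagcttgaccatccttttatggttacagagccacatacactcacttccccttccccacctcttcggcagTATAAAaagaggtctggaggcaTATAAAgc
The *Sprr1a* region holds AP-1 letters that begin 146 and 116 bases before the start and a TATA box that begins 43 bases before it. AP-1 is the site of Fos, Jun and Atf proteins, and both strands were searched. For the promoter counts a gene was higher or lower when any of its probes was called. This differs from the gene counts above, which took the brightest probe only, and for some of these genes other probes lay near 0. AP-1 letters stood in the promoters of 5.16% of all genes of the table, in 6 of 107 higher genes with a promoter (5.61%) and in 9 of 155 lower genes (5.81%), which is near the share of all genes. The CRE (TGACGTCA) stood in 1.77% of all genes, in 0 of the 107 and in 4 of the 155. The TATA box stood in 14.3% of all genes, in 11 of the 107 (10.3%) and in 24 of the 155 (15.5%). A PU.1-type ets motif (GAGGAAGT), of the kind used in blood cells, stood in 2.79% of all genes, in 4 of the 107 (3.74%) and in 11 of the 155 (7.10%). The 11 were *Mpo*, *Prtn3*, *S100a8*, *Mmp8*, *Lilra6*, *Gm14548*, *B430306N03Rik*, *Bglap3*, *Cyp2a4*, *Depdc5* and *Tyw1*. All genes of the table include genes not measured here, and the share among measured genes was not counted. A match describes these letters in this window, not a bound site.

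Immediate early genes, of which 11 of 14 were measured, included 2 that were 2-fold or more higher. *Fos*, a subunit of AP-1, had signals of -2.88, -2.86 and -2.88 on the 3 other arrays and -1.16 in DT-treated *Prestin*-*hDTR* mice, 3.25-fold above DT-treated wild-type mice. *Myc*, a growth regulator, was 2.10-fold higher, *Fosb* and *Egr1* had log2 ratios of 0.75 and 0.62, and *Jun* was at 0.17. The acute phase and scar list, 11 of 16 measured, had 3 higher genes and a median of 0.46. *Timp1*, an inhibitor of matrix proteases, had -0.65, -0.82 and -0.89 on the 3 other arrays and 1.21 in DT-treated *Prestin*-*hDTR* mice, 4.10-fold above wild-type. *Osmr*, the oncostatin M receptor, and *Socs3*, which restrains signalling through STAT3, were 2.22-fold and 2.16-fold higher. *Serpina3n*, a secreted protease inhibitor of reactive tissue, was well above background on that array alone and at least 4.16-fold higher, while *Gfap* was at 0.03.

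Chemokines that recruit monocytes were among the largest rises. *Ccl7* and *Ccl2*, both ligands of CCR2, were 4.90-fold and 4.45-fold higher. *Ccl7* had signals of -3.77, -4.45 and -4.24 on the 3 other arrays and -2.16 in DT-treated *Prestin*-*hDTR* mice, and *Ccl2* had -3.37, -3.79 and -3.86 against -1.64. *Ccl4*, another monocyte chemokine, was 4.24-fold higher, and the receptor *Ccr2* was 2.28-fold higher. In the authors' qRT-PCR *Ccr2* was not significantly upregulated. Of 20 chemokine and receptor genes, 14 were measured, 5 were higher, 0 lower, and the median was 0.90 (-0.21 without toxin). *Ccl3* was at least 4.40-fold and *Ccl8* at least 2.27-fold higher, as bounds. *Cxcl12*, made by stromal cells, was at -0.20, and *Cxcl9*, an interferon-induced ligand, was well above background with toxin in the wild-type mice only, at least 1.34-fold apart.

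Of 24 macrophage genes, 23 were measured, 8 were 2-fold or more higher, 0 were lower, 21 were above 0, and the median was 0.87, against -0.21 between the untreated groups. Among all genes 0.733% were higher by that much. *Ms4a7* and *Mpeg1*, a pore-forming protein of phagocytes, were 2.62-fold and 2.61-fold higher. *Lyz2* (lysozyme) was 2.46-fold, *Cd68*, a lysosomal protein, 2.32-fold and *Cd14*, the co-receptor for bacterial lipopolysaccharide, 2.28-fold higher. *Fcer1g*, *Adgre1*, a surface marker of mouse macrophages, and *Trem2*, a lipid receptor, were higher by 2.08-, 2.05- and 2.04-fold. *Mpeg1* had 0.28, 0.39 and 0.10 on the 3 other arrays and 1.78 in DT-treated *Prestin*-*hDTR* mice, and for *Cd68*, with -0.26, -0.21 and -0.46 against 1.0, the second probe gave 1.26. The fractalkine receptor *Cx3cr1* was at 0.93 and the growth factor receptor *Csf1r* at 0.48, while *Mertk*, a receptor for the uptake of dying cells, was at -0.20. *Itgam*, which neutrophils share, had probes at -0.35 and 0.12. The summed level of the list was 39.7, 36.5 and 32.7 on the 3 other arrays and 58.1 in DT-treated *Prestin*-*hDTR* mice. *Lyz2* has a near-identical neighbour, *Lyz1*, and their probes may share signal.

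All 18 measured genes of lipid-handling phagocytes, of 20 listed, had ratios above 0, with 2 at 2-fold or more and a median of 0.43. Galectin 3 (*Lgals3*), a carbohydrate-binding protein of activated phagocytes that epithelia also make, had signals of 0.38, 0.67 and 0.14 on the 3 other arrays and 2.77 in DT-treated *Prestin*-*hDTR* mice (chr14:48005414-48005473, mm9). The DT-treated groups differed by 4.29-fold. *Apoc2*, the activator of lipoprotein lipase, was 4.73-fold higher, with *Apoc1* just under 2-fold and *Apoe* at 0.22. The complement list had 12 of 14 measured, 1 higher and a median of 0.47. Its higher gene was *C1qb*, at 2.04-fold, and the other C1q chains *C1qa* and *C1qc* were both at 0.88. *C3* was at -0.37. *C3ar1* and *C5ar1*, receptors for the cleaved fragments of C3 and C5, were bounds of at least 1.98-fold and 1.95-fold higher.

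Antigen presentation and interferon genes moved little. The 7 measured MHC class II genes had ratios between 0.00 and 0.29 and a median of 0.15, and of the 19 interferon response genes 0 were 2-fold apart, with a median of 0.23. *Bst2*, *Ifi44* and *Zbp1* were highest in that list, at 0.75, 0.67 and 0.57. Between the untreated groups the interferon list had a median of -0.47. Of the T and NK cell list, 6 of 12 genes were measured and *Cd28*, the costimulatory receptor of T cells, was 3.85-fold higher, with signals of -4.55, -4.53 and -4.54 on the 3 other arrays and -2.58 in DT-treated *Prestin*-*hDTR* mice. The T cell receptor subunit gene *Cd3e* was at 0.04 and the T cell kinase *Lck* at 0.05, and the median of the list was 0.04.

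**Figure D3:**
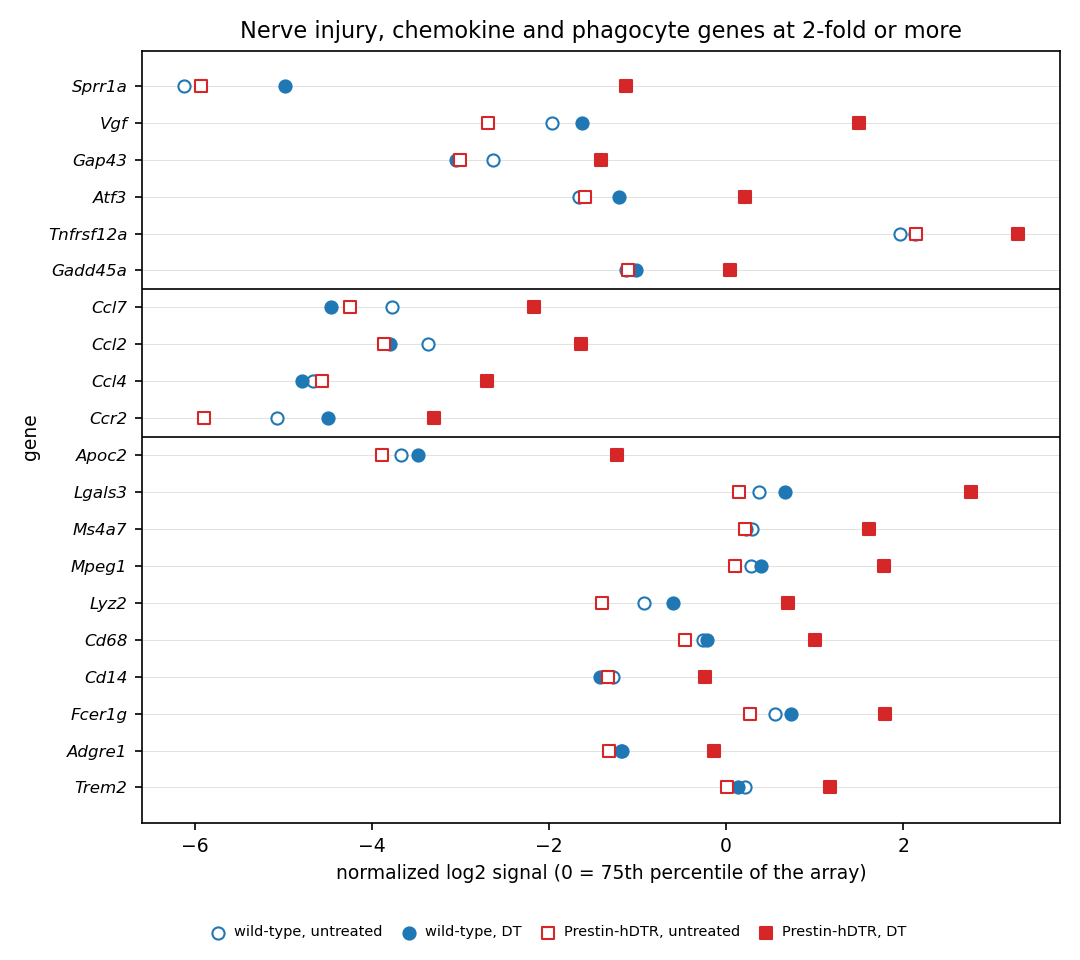
Normalized log2 signal (x axis, 0 = 75th percentile of the array) of nerve injury, chemokine, macrophage and lipid-handling phagocyte genes from among those that were 2-fold or more higher (rows), with 1 marker per array. The filled square of DT-treated *Prestin*-*hDTR* mice lies to the right of the 3 other arrays in every row, as for *Lgals3* (2.77) and *Vgf* (1.5).

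Several higher genes encode proteins of epithelia. *Cdsn* (corneodesmosin), which holds cornified cells together, was 6.75-fold higher, with -3.91, -4.30 and -4.18 on the 3 other arrays and -1.55 in DT-treated *Prestin*-*hDTR* mice. It was the only 1 of 13 measured genes of a keratin and cornified envelope list at 2-fold, and the median was 0.27. *Krt8* and *Krt18*, the keratin pair of simple epithelia that cochlear supporting cells also make, were at 0.89 and 0.73, *Krt14* was at -0.53, and *Trp63* had probes at -0.24 and 0.56. *Ivl* (involucrin) was at least 2.40-fold higher. The claudin genes *Cldn24* and *Cldn22*, neighbours on chromosome 8, were 8.07-fold and 5.09-fold higher. *Cldn22* had -1.63, -0.93 and -1.16 on the 3 other arrays and 1.42 in DT-treated *Prestin*-*hDTR* mice, and *Cldn24* was not well above background in untreated wild-type mice. The ets factors *Elf5*, of glandular epithelium, and *Elf4* were 3.88-fold and 3.72-fold higher. *Elf4* was dim on every array, with -4.74, -5.41, -4.98 and -3.52.

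The remaining genes among the 20 largest rises came from several families. *Olig2*, a transcription factor of the oligodendrocyte lineage, was 5.40-fold higher, and *Cckbr*, the gastrin receptor, was 4.88-fold higher. Both were dim in DT-treated wild-type mice, at -5.22 and -4.75. *Lgr6*, a receptor for R-spondins that marks some supporting cells, was 4.08-fold higher, with -4.76, -4.79 and -4.90 on the 3 other arrays and -2.76 in DT-treated *Prestin*-*hDTR* mice. Beside *Lgr6*, the only other gene at 2-fold among 28 measured Wnt pathway genes was *Wnt2*, 2.51-fold higher, and the list had a median of 0.14. In the authors' qRT-PCR *Wnt2* was not significantly upregulated. *Axin2*, a common target of the pathway, had probes at 0.03 and -1.04, and the inhibitor *Dkk1* was at -0.99. *Ddx43*, a helicase, was 4.34-fold, *Vmn2r121*, of the large vomeronasal receptor family whose members may share signal, 4.49-fold and *Clec1a*, a lectin-like receptor, 4.21-fold higher. All 3 were dim on every array, with signals of -3.08 or lower, and the authors could not detect *Ddx43* by qRT-PCR. Among bounds, *Sprr2a2*, of a family of similar sequences, was at least 11.2-fold, *Spink5* at least 9.46-fold, *Olfr114* at least 7.42-fold, *Tlr6* at least 6.57-fold and *Npy2r* at least 6.53-fold higher.

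Matrix, cell death and cell cycle genes were mixed. Of 17 measured matrix genes, *Prelp*, an anchor of basement membranes, was 3.02-fold and *Loxl4*, an enzyme of collagen crosslinking, 2.37-fold higher, *Col1a1* was 2.36-fold lower, and the median was 0.30. *Col8a2* had probes at 0.04 and -1.49, and *Mmp13*, a collagenase of bone, was at least 2.93-fold lower. *Mmp13* was also lower without toxin, with a log2 ratio of -2.08. Of 21 cell death genes, 3 were higher and 0 lower. These were *Bcl2a1c* and *Bcl2a1d*, anti-apoptotic paralogs of blood cells whose probes may share signal, at 3.64-fold and 3.28-fold, and *Pmaip1* (Noxa), a pro-apoptotic gene, at 2.82-fold, and the median was 0.12. Of 15 cell cycle genes 0 were 2-fold apart and 12 were below 0, with a median of -0.25 and *Mki67* lowest at -0.88, while *Aurkb*, a mitotic kinase detected on the DT-treated *Prestin*-*hDTR* array alone, was at least 3.12-fold higher. The 11 genes of the route by which DT acts, such as the furin protease and the enzymes that make diphthamide, had a median of 0.12, and *Eef2*, the target of the toxin, was at 0.02.

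Blood and marrow genes made up the other large group of lower genes. Together the lists of neutrophil, eosinophil, erythroid, B cell, T and NK cell and platelet genes held 34 of the 245 lower probes, of 32 genes, and 211 lower probes were left without them. Over all probes 1.03% were lower, and how many compared probes these lists held was not counted. The eosinophil list was added after the values were seen, so its 6 lower genes were bound to be among the 32. Only 1 of the 156 higher probes was on these lists, that of *Cd28*. The part of these cells in the differences of any other list was not tested.

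The 27.7-fold fall of *Ppbp* (pro-platelet basic protein), a chemokine stored in platelets, was the largest of the comparison. Its signal (chr5:91198970-91199029, mm9) was -1.28 in untreated and 0.24 in DT-treated wild-type mice, and -5.46 in untreated and -4.55 in DT-treated *Prestin*-*hDTR* mice. Both *Prestin*-*hDTR* arrays were low, and the untreated groups differed by a log2 ratio of -4.18. *Treml1*, a receptor of platelet granules, was 14.1-fold lower, with -2.20, -1.17, -5.15 and -4.99 in the same order. Among the other platelet genes, *Gp9* was at least 9.98-fold lower, *Itgb3* was at -0.96 and *Pf4* at -0.47, and the list had a median of -0.85 (-0.67 without toxin). Of the 10 listed, 6 were measured.

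Neutrophil genes were lower with and without toxin. With toxin 10 of 12 measured genes were 2-fold or more lower, and the median was -1.43. Without toxin the median was -1.38 and 8 genes were lower. *Camp* (cathelicidin) had signals of 2.22, 2.82, 0.21 and 0.82 in the order used above, 4.00-fold apart with toxin, and *Ngp* was 4.01-fold lower. *Mpo* and *Prtn3*, proteins of primary granules, were 2.84-fold and 2.23-fold lower, *S100a8* and *S100a9* (calprotectin) 2.87-fold and 2.36-fold, and *Ltf* (lactoferrin) 3.25-fold. *Chil3* and *Mmp8* were 3.42-fold and 2.54-fold lower, *Retnlg* lay just past 2-fold, and *Ly6g* was the only member above 0, at 0.17. The summed level was 40.9 without and 63.7 with toxin in wild-type mice, and 14.4 without and 23.9 with toxin in *Prestin*-*hDTR* mice.

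Erythroid genes showed another order of the arrays. Of 11 measured genes, 7 were lower, 11 were below 0, and the median was -1.26, but without toxin it was -0.10 with 0 genes lower. *Gata1*, the master regulator of red cell formation, was 5.15-fold lower, with -4.88, -2.22, -6.09 and -4.59 in the order used above. *Slc4a1*, the anion exchanger of red cells, had -2.45, 0.14, -2.75 and -1.12, and *Kel*, a blood group antigen, -5.46, -2.27, -5.37 and -3.87. The DT-treated wild-type array was the highest for these genes, and DT-treated *Prestin*-*hDTR* mice lay above untreated *Prestin*-*hDTR* mice. *Rhd*, *Ahsp* and *Epor* were 2.78-, 2.61- and 2.02-fold lower, while *Tfrc* and *Sptb*, which other cells use, were at -0.12 and -0.29. The summed level was 5.37 without and 10.3 with toxin in wild-type mice, and 5.27 without and 6.39 with toxin in *Prestin*-*hDTR* mice. *Hbq1b*, a globin outside the list, was 4.85-fold lower, with -2.45 in DT-treated wild-type and -4.72 to -5.08 on the other arrays.

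B cell and B progenitor genes were also lower. Of 12 measured, 7 were lower and the median was -1.04 (-0.29 without toxin, with 0 lower). *Dntt*, which adds bases at immunoglobulin joints, was 2.73-fold, *Ms4a1* (CD20) 2.57-fold and *Vpreb3* 2.47-fold lower, followed by *Vpreb1*, *Cd79b* and *Cd79a* at 2.33-, 2.15- and 2.02-fold. *Ebf1*, which fibroblasts and fat cells also use, was at -0.06 and *Blnk* at 0.09. The summed level was 4.97, 6.68, 4.75 and 5.16 on the 4 arrays, highest in DT-treated wild-type mice.

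Genes of bone and muscle were measured as further tissue at the edge of the dissection. Of 8 osteoblast and osteocyte genes, *Bglap* (osteocalcin) was 2.78-fold lower, *Ibsp* lay just under 2-fold lower, and the median was -0.61 (-0.19 without toxin). *Bglap* had 2.54, 2.92, 2.28 and 1.45 on the 4 arrays, and the summed level was 16.1, 20.4, 13.9 and 11.1. Of 6 osteoclast genes, *Acp5*, the tartrate-resistant phosphatase, was 2.54-fold lower and was also lower without toxin, at -1.52, and the median was -0.13. Of 16 muscle genes 6 were measured, with a median of -0.09. The only 1 at 2-fold was *Tcap*, a protein of the muscle Z-disc, with 2.79, 2.59, 2.70 and 1.18 on the 4 arrays, 2.67-fold lower in DT-treated *Prestin*-*hDTR* mice, whereas the muscle actin *Acta1* was at -0.01. The share of bone and muscle in the differences of hair cell or phagocyte lists was not tested.

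**Figure D4:**
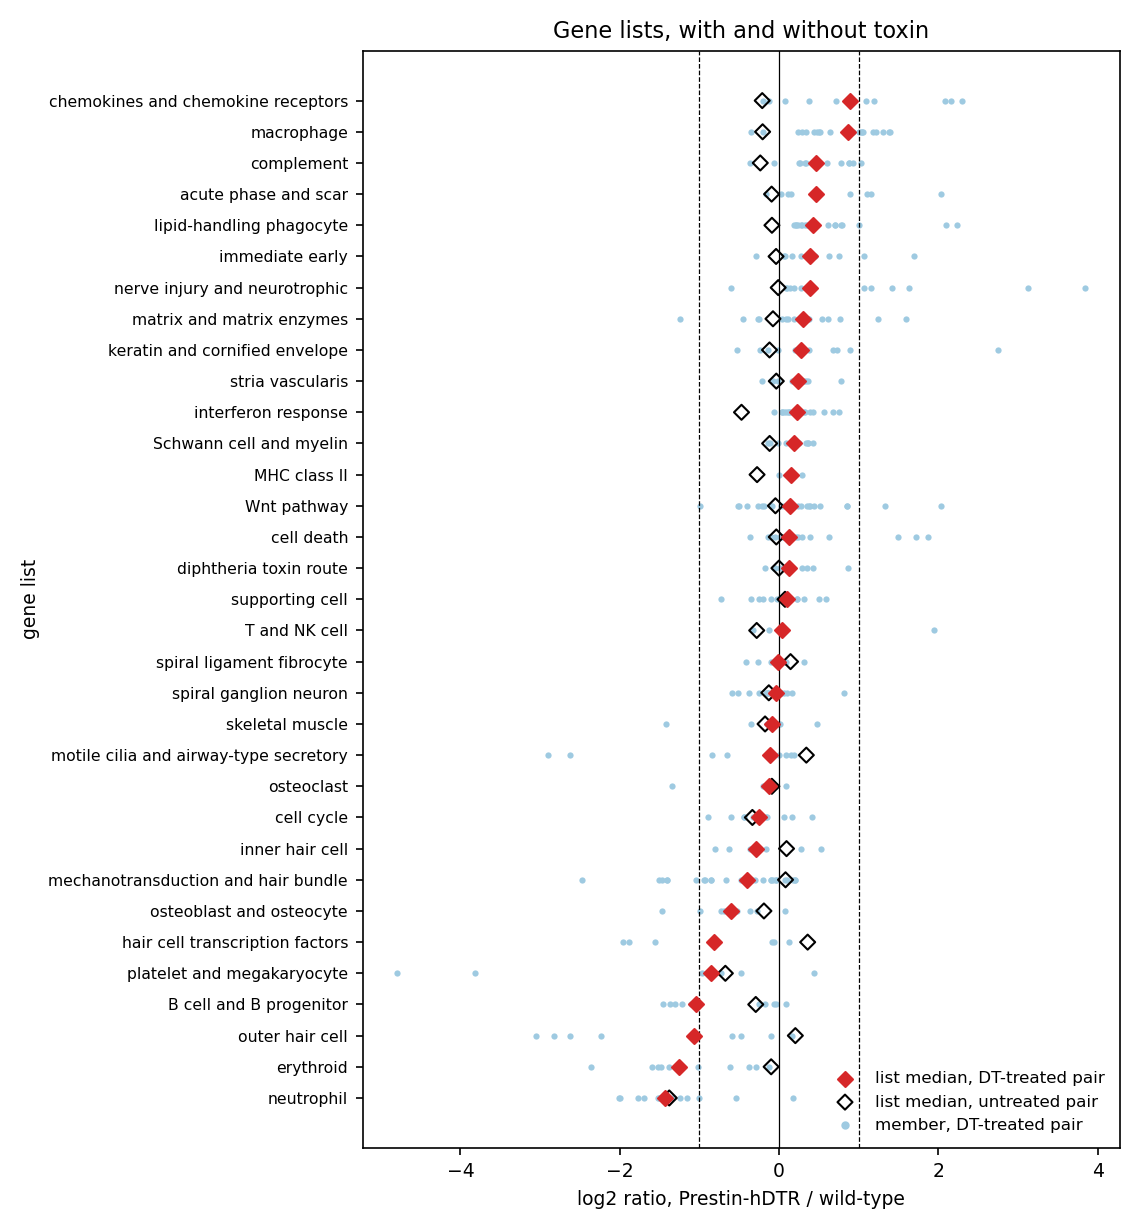
Each row is a gene list, with the log2 ratio (*Prestin*-*hDTR* over wild-type) on the x axis. Filled diamonds are list medians of the DT-treated pair, open diamonds those of the untreated pair, and dots single genes of the DT-treated pair. The outer hair cell median (-1.06) lies left of its untreated value (0.21), the macrophage median (0.87) right of its untreated value (-0.21), and the neutrophil medians lie side by side (-1.43 and -1.38).

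The untreated pair shares no array with the DT-treated pair. Without toxin, 105 of 25915 probes were 2-fold or more higher in *Prestin*-*hDTR* mice (0.405%) and 279 were lower (1.08%). Of the 156 probes higher with toxin, 149 were measured without it. Of these, 143 were within 2-fold, 4 were lower and 2 were higher, the latter in *Sox6* and *Ripply3*. Shared higher probes were 1.28% of the higher list with toxin and 1.90% of that without. On 109 of the 149 probes the array of DT-treated *Prestin*-*hDTR* mice stood 2-fold or more above each of the 3 others. On 0 was DT-treated wild-type 2-fold below each of the others, but probes at background on an array were not counted here. *Nupr1l*, given a bound only, had -2.96, -7.51, -2.94 and -2.97 on the 4 arrays, with DT-treated wild-type alone low.

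The lower list was less uniform. Of 245 lower probes, 241 were measured without toxin, 180 were within 2-fold, 44 were also lower and 17 were higher. The 44 shared probes made up 17.96% of the lower list with toxin and 15.8% of that without. They included *Ppbp*, *Treml1*, *Camp*, *Ngp*, *Ltf*, *Mpo*, *Chil3* and *Acp5*. On 47 of the 241 probes DT-treated *Prestin*-*hDTR* mice stood 2-fold or more below each of the 3 other arrays, as for *Strc*, *Chrna10* and *Ocm*. On another 66 it was DT-treated wild-type that stood 2-fold or more above each of the 3 others, as for *Kel*, *Slc4a1*, *Hbq1b* and *Plag1*. *Plag1*, a zinc finger gene, had -5.04, -2.84, -5.02 and -5.17 on the 4 arrays. After *Gp9*, the furthest lower bounds were those of *Clspn*, *Alms1*, *Eno4* and *Pabpc2*, at least 8.53-, 7.41-, 7.30- and 7.08-fold lower, and here too DT-treated wild-type stood above each of the 3 other arrays.

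**Figure D5:**
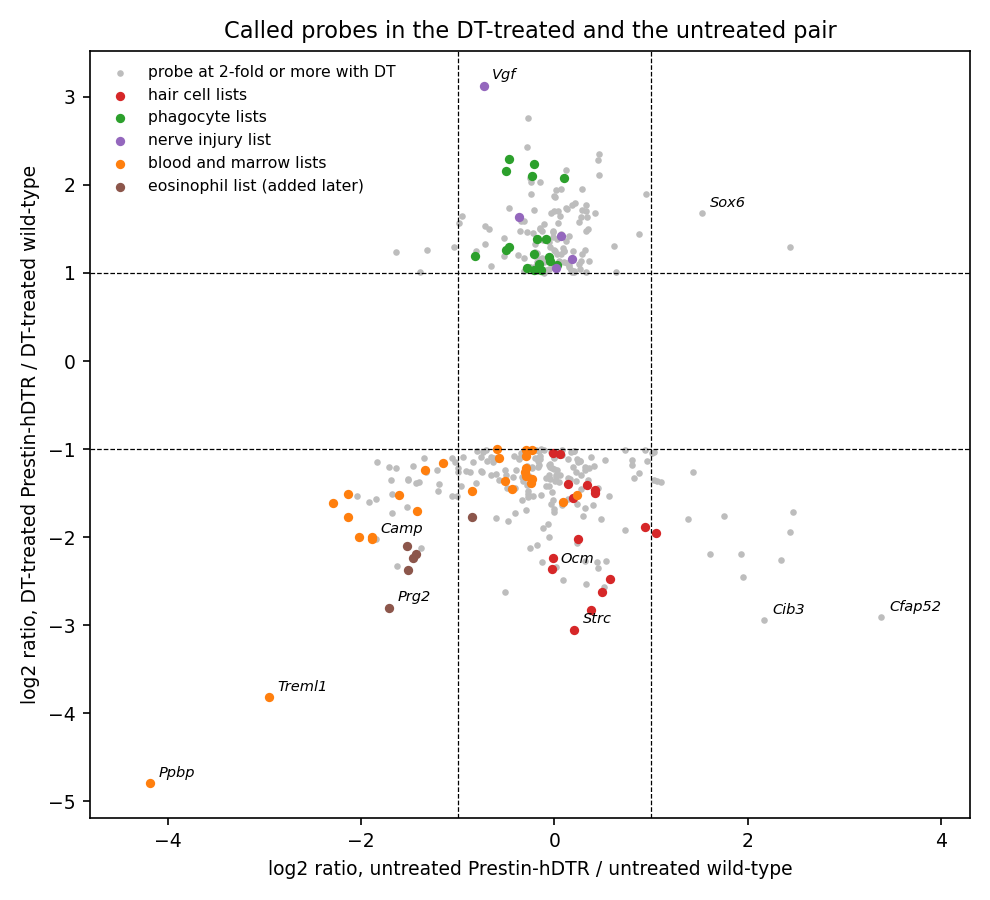
Each point is a probe called at 2-fold or more in the DT-treated pair and measured in both pairs, with its log2 ratio without toxin on the x axis and with toxin on the y axis. Dashed lines mark 2-fold. Hair cell genes such as *Strc* (-3.05, 0.21 without toxin) lie low in the middle, blood genes such as *Ppbp* (-4.79, -4.18) low on the left, and *Cfap52* (-2.91, 3.38) and *Cib3* (-2.94, 2.17) low on the right.

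A last group of lower genes was high on 2 arrays of different genotype. *Cib3*, a relative of the transduction protein CIB2, had signals of -3.02 in untreated and -0.99 in DT-treated wild-type mice, and -0.85 in untreated and -3.93 in DT-treated *Prestin*-*hDTR* mice (chr8:74729463-74729522, mm9). *Cfap52*, of motile cilia, followed that order with -5.58, -2.50, -2.20 and -5.41, and *Skor1*, a transcriptional corepressor, with -3.61, -1.87, -1.69 and -4.06 and a second probe at -2.45. *Zcchc12* and *Fam183b* were 4.79-fold and 4.57-fold lower with toxin and had untreated ratios of 2.35 and 1.61. For these genes the wild-type array with toxin and the *Prestin*-*hDTR* array without it were high and the other arrays low, so the genotypes overlapped. The cilia and airway-type secretory list, 10 of 19 measured, held *Cfap52* and *Bpifa1*, a secreted airway protein 6.15-fold lower, as its 2 lower genes and had a median of -0.12 (0.34 without toxin). Its defining ciliary factor *Foxj1* was at -0.14.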

How the data were processed

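Arrays of DT-treated wild-type and DT-treated *Prestin*-*hDTR* cochleae were compared, with the untreated pair as background. The authors labelled pooled RNA with Cy3, hybridised it to Agilent mouse arrays and deposited the scanner output of Agilent Feature Extraction 11.5.1.1. The deposited intensity of a spot is linear, background-subtracted and detrended, and is not scaled between arrays. The authors also deposited a scaled table, in which each array's intensity is divided by its own constant, and this served as an alternative. Probe positions follow the mm9 build of the file headers.

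Control spots and the 149 to 228 outlier spots per array were left out, the mean was taken over repeated spots, and a probe had a flag when over 0.5 of its spots had it. Signals were divided by the array's 75th percentile, following the methods, and log2 was taken. Probes well above background on both arrays were called at 2-fold. A probe well above background on 1 array only (1655 probes) gave a lower bound, and 203 of these bounds reached 2-fold higher and 219 lower. Every fold and log2 ratio was computed from the deposited intensity. Probes were named through RefSeq symbols (29803), accessions (1735) or synonyms (271), and 7620 kept the name of the array. For a gene, the probe with the higher mean over the 2 arrays was taken. Exon or UTR positions of probes were not analysed here.

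The genes named are the 20 largest rises and falls with a RefSeq symbol, the 5 largest bounds each way, *Hbegf*, *Slc26a5*, *Gapdh* and members of 33 lists (514 genes). Of a list, members at 2-fold, or the 4 furthest in its direction, and those with disagreeing probes are named. Further members, given for contrast, and the genes outside the lists were chosen after their values were seen. The comparison, the lists and the alternatives were chosen with earlier results of these data known. Another 2 lists were added after the values were seen. The alternatives changed the scaling, the background correction, the source of values, the filter, the fold and the probe taken. The steps were tested on simulated data. The tools were R 4.3.3 with limma 3.58.1 for the normexp correction, and otherwise pandas 2.3.3, numpy 2.4.6 and matplotlib 3.10.9 in Python 3.11.15. A few list members are counted with their lists but not reported here by name. Promoters were found for 32 of the 40 largest rises and falls.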

Additional observations from a re-analysis of the deposited data

Results flagged for a closer look

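Of the called probes, 17 lower and 4 higher ones went the opposite way by 2-fold or more in the untreated pair, and 6 of their genes are given here. The log2 ratio of *Prestin*-*hDTR* over wild-type mice was -2.94 with toxin and 2.17 without for *Cib3*, -2.91 and 3.38 for *Cfap52*, -2.26 and 2.35 for *Zcchc12*, -2.19 and 1.61 for *Fam183b*, -2.19 and 1.93 for *Skor1*, and -1.96 and 1.05 for *Gfi1*. With 1 array per group, this difference between the pairs was not tested. In each of the 6 genes the arrays of untreated wild-type and of DT-treated *Prestin*-*hDTR* mice were the lowest 2. For *Gfi1* they lay well apart, at -0.34 and -1.37, beside 0.59 and 0.71 on the other arrays. *Fam183b* had -2.82 and -3.78, beside -1.59 and -1.20.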

How the results depend on the processing

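Of the values of 33 list medians under the alternatives, 256 of 264 moved by less than 0.19, the SD between probes of a gene on the log2 scale, and so did 666 of 718 values of 103 genes. Much of this was fixed in advance. Changes of filter left the ratio of such a gene as it was. The median as scale and the authors' scaled values shifted all ratios alike, to a median over all probes of 0.04 and 0.01. Only quantile normalization and the normexp correction could therefore move a gene by 0.19. The sign changed only for medians near 0, those of the spiral ligament fibrocyte (up to 0.02), skeletal muscle, and motile cilia and airway-type secretory lists (the last 2 up to 0.04). The counts of higher and lower probes were 177 and 227 with the median as scale, 165 and 227 with quantile normalization, 163 and 243 with the authors' scaled values and 149 and 241 with probes well above background on all 4 arrays. They were 97 and 157 with the normexp correction, 359 and 464 with probes well above background on at least 1 array or without a filter, 589 and 700 at 1.5-fold and 46 and 71 at 3-fold. The normexp correction moved the erythroid median to -0.99 and the B cell median to -0.84. The B cell median was -0.80, and the complement median 0.69, with probes well above background on at least 1 array and without a filter. The median of the hair cell transcription factors was -0.076 without a filter and -1.30 when all probes of a gene were taken. The causes were not tested, except that the looser filters add dim probes held at a floor. No paired analysis was possible because each group has 1 array, and for the same reason no array could be left out. The number of arrays limits every value, and dim probes have only bounds: 156 of the 422 bounds at 2-fold were well above background on no other array.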

Other observations

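Genes of eosinophil granules were among the lowest of the comparison, and their list was put together after the values were seen. Of 11 such genes 6 were measured, all 6 were 2-fold or more lower, with a median of -2.21, and 5 were also lower without toxin, with a median of -1.48. *Prg2*, the major basic protein of eosinophils, had signals of -0.75 in untreated and 0.53 in DT-treated wild-type mice, and -2.45 in untreated and -2.27 in DT-treated *Prestin*-*hDTR* mice, 6.97-fold apart with toxin. *Ear1*, *Ear2* and *Rnase2a*, ribonucleases of eosinophils, were 5.18-, 4.55- and 4.71-fold lower, and the probes of these near-identical paralogs may share signal. *Epx*, the eosinophil peroxidase, was at least 4.37-fold lower. Both *Prestin*-*hDTR* arrays were below both wild-type arrays for the 6 measured genes, and the share of all genes in this order was not counted. The summed level was 2.20, 5.62, 0.80 and 1.14 on the 4 arrays.

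Genes of otoconia and of the vestibular sensory epithelium, also listed after the values were seen, had 6 of 8 measured. *Cib3* and *Skor1* were lower, and *Otop1* and *Oc90*, which take part in making otoconia, were at 0.22 and 0.51. *Otol1*, the collagen-like protein of otoconia, had -6.47, -3.23, -3.05 and -4.08 on the 4 arrays and was not well above background in untreated wild-type mice.

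Higher genes that no list held, chosen after their values were seen, included several of epithelia. *Lce1c*, of the cornified envelope, had a log2 ratio of 1.64, and *Elf3* and *Spdef*, ets factors of epithelia, of 1.24 and 1.28. Their untreated ratios lay between 0.09 and 0.28. *Gem*, a small GTP-binding protein induced by stimulation, was higher by both of its probes, at 2.11 and 1.74, and so was *C2cd4b*, at 1.77 and 1.69. The neuropeptide gene *Calca* was at 1.17 and the stress-induced cytokine gene *Gdf15* at 1.02. Among lower genes, *Il33*, an alarm cytokine of epithelial and stromal nuclei, was at -1.20 with an untreated ratio of 0.19. Other genes of epithelia that no list held were lower too, such as *Foxa1* at -1.09 and *Muc13* at -1.11. How many went each way was not counted.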
